A study of Mus musculus with 27 samples.

Results

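Polycomb repressive complex 1 (PRC1) was followed through 9 of its genes, among 27080 genes with read counts in the RNA-seq tables. The members were taken by gene symbol: the chromodomain genes Cbx2, Cbx6, Cbx7 and Cbx8, the ubiquitin ligase genes Ring1 and Rnf2, the PCGF genes Pcgf6 and Bmi1, and Rybp. All 9 were listed in each table and all 9 passed the filter on low counts in each comparison.

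The cells were J1 mESCs, a mouse embryonic stem cell line grown without feeders in medium with serum and LIF, the cytokine that holds them undifferentiated. Gas41, encoded by Yeats4, reads acetylated histones through its YEATS domain and belongs to complexes that place the histone variant H2A.Z. Lentiviral shRNAs against it (shGas41-1, 3 libraries, and shGas41-2, 2 libraries) or a non-targeting control (shCon, 3 libraries) were introduced, infected cells were selected with puromycin, and knockdown cells were harvested on day 8 after infection. Cells with the control vector were also sequenced undifferentiated with LIF (EB day 0, 2 libraries) and as embryoid bodies (EBs), aggregates that differentiate without LIF, at day 6 (2 libraries). All groups are therefore infected cells of 1 line that carry a vector, the knockdowns (KDs) are selected pools with residual Gas41 RNA, and EBs are mixtures of differentiating cells. The methods describe biological repeats, but neither they nor the labels tie single libraries to separate cultures, so p-values measure the spread between these libraries, which may be partly technical.

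PRC1 places ubiquitin on histone H2A (the mark H2AK119ub1) and compacts chromatin at developmental genes. Every PRC1 holds a RING ligase, RING1A (Ring1) or RING1B (Rnf2), bound to 1 PCGF protein. In canonical PRC1 the PCGF partner is MEL18 (Pcgf2) or BMI1, and a CBX protein reads H3K27me3, the mark of PRC2. In variant PRC1 the CBX protein is replaced by RYBP or YAF2, which stimulate the ligase, and the PCGF protein sets the other partners. In mESCs Cbx7 is known as the main CBX of canonical PRC1, and Cbx2 and Cbx8 as paralogues that take over as cells differentiate.

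Each library held between 59224537 and 81524773 counts, at which 3 counts correspond to between 0.0368 and 0.0507 CPM, that is, TMM-normalised counts relative to the library total. Yeats4 itself stood at 61.3, 53.2 and 50.9 CPM in shCon, at 3.46, 4.38 and 5.10 CPM with shGas41-1, and at 8.81 and 7.95 CPM with shGas41-2. All 5 KD libraries lay below every control library. Summed over 7 markers of undifferentiated ESCs (Pou5f1, Nanog, Sox2 and others), the level was between 4889 and 6172 CPM in all undifferentiated libraries and 2190 and 2274 CPM at EB day 6. The sum over 10 differentiation markers was between 14.3 and 26.5 CPM in the former and 1528 and 2135 CPM in the latter. Fibroblast markers (6 genes) summed to at most 13.5 CPM in any library, in undifferentiated cells mostly from Thy1, and Lum was at 0 in every undifferentiated library but 1. Of 6 markers of 2-cell-like cells, 4 were listed, with summed levels between 28.7 and 238 CPM in shCon, 388 and 699 CPM with shGas41-1, and 228 and 553 CPM with shGas41-2. The third shGas41-1 library stood apart in its GC trend: relative to its group, the log2 level changed by -0.18 per 10% of exon GC, against slopes between -0.090 and 0.13 in the other 11 libraries. The main values that rest on it are therefore given without it as well. In each library an even number was somewhat more common than an odd one among counts of 1 to 20, so a count may not always stand for 1 fragment.

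The shRNA targets were found in the mm9 genome in exons of Yeats4, at chr10:116652513-116652533 for shGas41-1 (not wholly coding) and chr10:116659320-116659340 for shGas41-2 (coding), both on the minus strand. They are shown to place them against the members' own transcripts, with capitals for the longest stretch that the target shares with any member transcript.
shGas41-1: gtagcattCCACGACgttaag
shGas41-2: atcgTTAAGCCAatcgtttat
That stretch was 7 bases, in Cbx6, for shGas41-1 and 8 bases, in Pcgf6, for shGas41-2.

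The CBX members lie in pairs on the genome. On mm9, Cbx6 (ENSMUSG00000089715) occupies chr15:79654326-79665118 and Cbx7 (ENSMUSG00000053411) chr15:79746237-79801549, both on the minus strand and 81118 bases apart. Cbx2 (ENSMUSG00000025577), at chr11:118884276-118892584 on the plus strand, is 5034 bases from Cbx8 (ENSMUSG00000025578), at chr11:118897619-118902283 on the minus strand. The other members are on other chromosomes, Rnf2 at chr1:153316536-153347953, Bmi1 at chr2:18598645-18608256, Rybp at chr6:100178560-100237435, Ring1 at chr17:34157737-34161625 and Pcgf6 at chr19:47108109-47125380.

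Promoter sequences (250 bases before to 50 after the start) were present for 7 of the 9 members in the RefSeq table of GRCm38.p6, Cbx2 and Rybp being those not matched, and each was found whole in mm9. The 7 were richer in GC and CpG than the table at large, with GC contents between 57.7% and 74.0% against a median of 53% over 32544 promoters, and between 22 and 37 CpG dinucleotides against a median of 7. The letters CACGTG (the E-box, the same on both strands) stood in the promoters of Bmi1, Cbx6 and Cbx8, and in 7.17% of all promoters, and the letters GCGGGAA (an E2F-type element, either strand) in none of the 7 and in 4.63% of all. Cbx6 and Cbx7 are shown because these neighbours had the most alike levels of any pair of members, and Bmi1 because it rose at EB day 6 and its window also holds the E-box letters (capitals: CACGTG).
Cbx6, chr15:79664714-79665013, minus strand: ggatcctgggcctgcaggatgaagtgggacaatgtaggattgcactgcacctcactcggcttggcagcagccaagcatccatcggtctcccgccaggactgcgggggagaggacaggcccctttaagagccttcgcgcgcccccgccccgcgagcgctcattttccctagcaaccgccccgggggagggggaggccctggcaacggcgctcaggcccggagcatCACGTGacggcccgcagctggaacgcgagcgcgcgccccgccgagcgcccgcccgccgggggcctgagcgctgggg
Cbx7, chr15:79763027-79763326, minus strand: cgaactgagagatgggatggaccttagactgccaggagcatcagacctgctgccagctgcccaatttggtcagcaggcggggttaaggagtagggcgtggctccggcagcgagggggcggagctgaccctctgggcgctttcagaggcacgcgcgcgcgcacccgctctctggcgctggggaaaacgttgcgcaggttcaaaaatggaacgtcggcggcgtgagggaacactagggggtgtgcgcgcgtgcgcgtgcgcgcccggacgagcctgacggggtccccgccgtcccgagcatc
Bmi1, chr2:18598395-18598694, plus strand: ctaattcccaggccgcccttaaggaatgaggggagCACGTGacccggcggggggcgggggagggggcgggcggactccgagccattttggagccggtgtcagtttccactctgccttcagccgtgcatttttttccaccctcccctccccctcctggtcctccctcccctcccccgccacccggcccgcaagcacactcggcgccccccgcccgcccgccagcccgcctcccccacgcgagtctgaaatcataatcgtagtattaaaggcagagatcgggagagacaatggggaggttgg
The window printed for Cbx7 lies inside the gene's annotated span, since the GENCODE annotation used here for positions also holds a longer transcript. A match of letters is a description of the window and not a binding site.

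Per kilobase of exon, the 9 members spanned a wide range of levels in undifferentiated control cells (shCon, mean ± SD, n = 3). Rnf2 was highest at 52.9 ± 1.84 CPM per kb, followed by Rybp at 38.3 ± 7.28, Cbx7 at 37.6 ± 3.08, Pcgf6 at 12.1 ± 0.599, Cbx2 at 9.81 ± 1.81, Cbx6 at 9.75 ± 1.97, Ring1 at 4.87 ± 0.709 and Bmi1 at 1.13 ± 0.158 CPM per kb. Cbx8 was lowest at 0.380 ± 0.133 CPM per kb. Rybp and Cbx7, and likewise Cbx2 and Cbx6, lay within each other's spread.

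**Figure D1:**
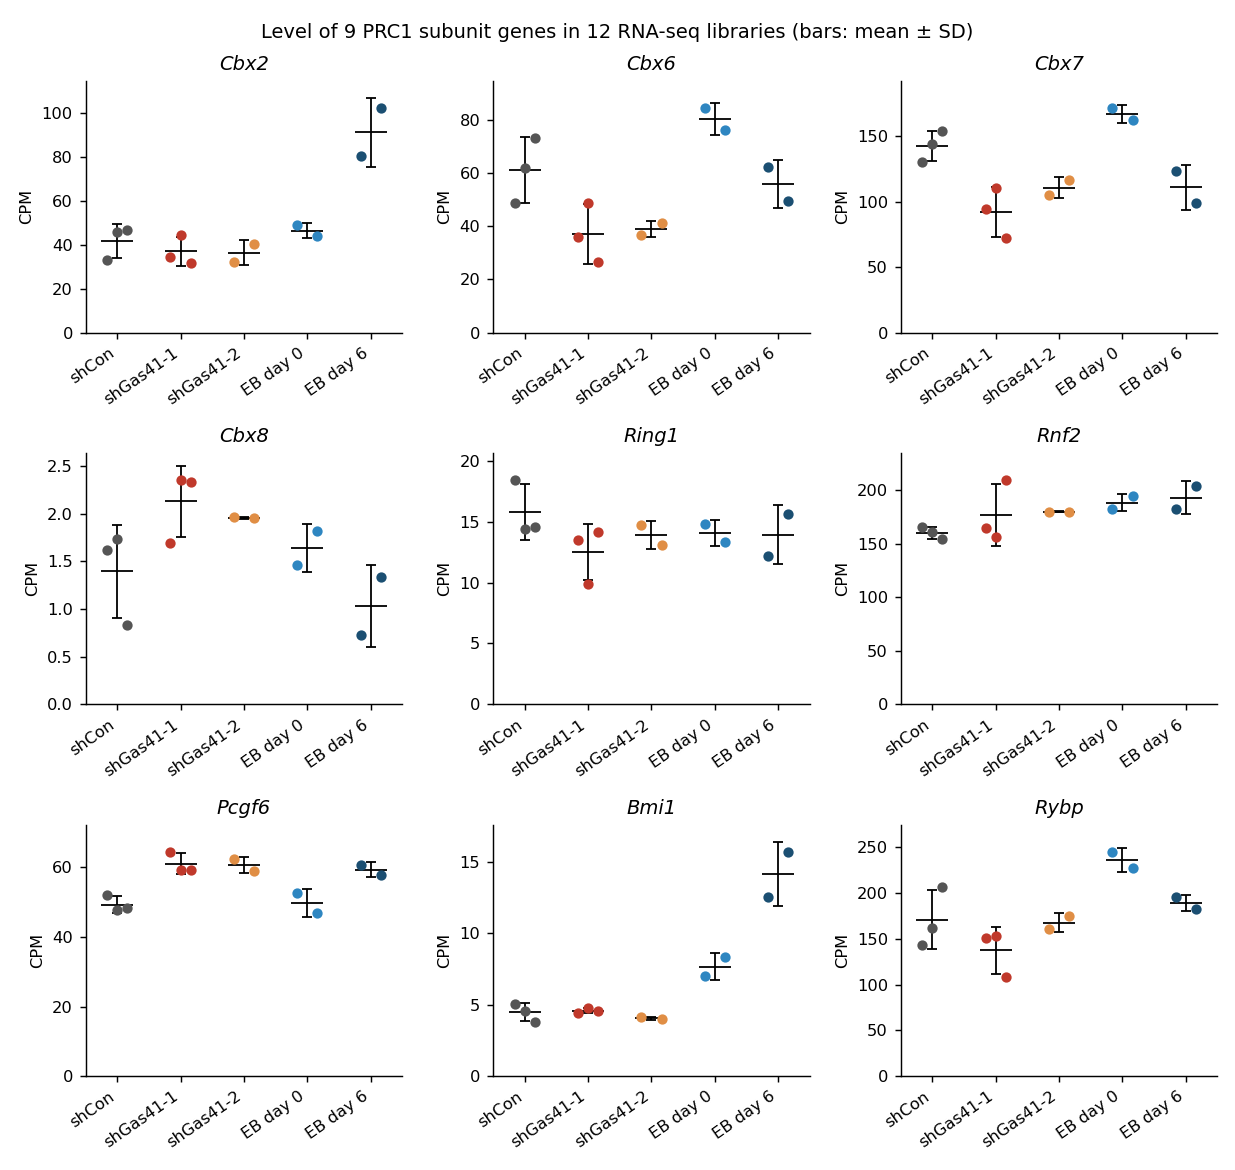
Normalised read counts (CPM, scaled by TMM over 12 libraries) of the 9 PRC1 members in each library, 1 panel per gene, with points for libraries and bars for the mean ± SD of each group. Cbx7 lies at 130.5 to 154 CPM in shCon and at 72.2 to 110.4 CPM with shGas41-1, whereas Cbx2 and Bmi1 stand highest at EB day 6.

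The comparison of Gas41 KD with control cells asks which members respond to loss of Gas41. With shGas41-1, 1 of the 9 members passed a false discovery rate (FDR) of 0.05 (edgeR's quasi-likelihood test, Benjamini-Hochberg over 18274 genes) and fell, and none rose, against 7.73% of all genes tested that fell and 10.8% that rose. At an unadjusted p under 0.05 3 members differed, against 35% of all genes, and DESeq2 called 2, Cbx6 and Cbx7, both lower, against 25.3% of all genes. With shGas41-2, none of the 9 passed in edgeR, against 3.97% of 18405 genes that fell and 5.94% that rose, while 3 had an unadjusted p under 0.05, against 28.3% of all genes, and 3 (Cbx6, Cbx7 and Pcgf6) passed in DESeq2, against 15.9%. The median log2 fold change over the members was -0.16 with shGas41-1 and -0.14 with shGas41-2, against 0.020 and -0.013 over all genes tested. Members whose KD libraries did not overlap those of shCon numbered 3 with shGas41-1 and 5 with shGas41-2, where 41.8% and 47.3% of all genes did not overlap. Of all genes that passed with shGas41-2, 60.0% rose, but 42.7% when libraries were scaled by their size alone. Without the third shGas41-1 library the same member passed with shGas41-1, and the log2 fold changes of those whose value without it is not given below were -0.079 for Cbx2, 0.55 for Cbx8, -0.43 for Ring1, 0.34 for Pcgf6 and 0.042 for Bmi1, none of which passed in edgeR. Both KDs share the shCon libraries, so their values are not independent of each other.

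Cbx7, the highest of the Cbx members in shCon, was at 130.5, 144 and 154 CPM in the 3 shCon libraries, at 94.1, 110.4 and 72.2 CPM with shGas41-1, and at 105 and 117 CPM with shGas41-2. All 5 KD libraries lay below all 3 shCon libraries. With shGas41-1 it fell by 34.4% (log2 fold change -0.61, 95% confidence interval -0.98 to -0.23, FDR = 0.0349 in edgeR), and this was the only member that passed. With shGas41-2 the log2 fold change was -0.36 (-0.60 to -0.11, FDR = 0.0693 in edgeR), which did not pass. The shGas41-1 call held without the third shGas41-1 library (log2 fold change -0.47, FDR = 0.0262) but was lost without shCon 2, shCon 3 or shGas41-1 1 (FDR between 0.105 and 0.114), with log2 fold changes between -0.75 and -0.47 over all libraries left out. With the GC trend of each library removed, a correction added after the data were seen, it was -0.42 (FDR = 0.0383).

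Cbx6, a less studied CBX paralogue 81118 bases from Cbx7, stood at 48.6, 61.9 and 73.4 CPM in shCon, at 36.2, 48.9 and 26.4 CPM with shGas41-1, and at 36.9 and 41.1 CPM with shGas41-2. The highest shGas41-1 library overlapped the lowest shCon library, and both shGas41-2 libraries were below every shCon library. Its log2 fold changes were -0.70 (-1.23 to -0.17, FDR = 0.0675 in edgeR) and -0.65 (-1.04 to -0.25, FDR = 0.0529), neither of which passed, and without the third shGas41-1 library the former was -0.52 (FDR = 0.0942). Without shCon 1 both passed, with log2 fold changes of -0.84 (FDR = 0.0455) and -0.78 (FDR = 0.000909). Of the exon bases of Cbx6, 18.7% are also annotated to Npcd on the same strand, and reads there cannot be assigned to 1 gene.

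Cbx2, whose protein compacts nucleosomes, had 32.9, 45.6 and 46.8 CPM in shCon, 34.2, 44.6 and 31.8 CPM with shGas41-1, and 32.3 and 40.4 CPM with shGas41-2. The groups overlapped, and the log2 fold changes of -0.16 (-0.58 to 0.26) and -0.19 (-0.60 to 0.21) had FDRs of 0.566 and 0.510 in edgeR. Cbx8, the paralogue beside it on the chromosome, was detected at 1.62, 1.73 and 0.837 CPM in shCon, at 1.70, 2.36 and 2.33 CPM with shGas41-1, and at 1.96 and 1.95 CPM with shGas41-2. Its log2 fold changes, 0.63 (-0.065 to 1.32, FDR = 0.178) and 0.50 (-0.23 to 1.22, FDR = 0.339), did not pass in edgeR and have wide intervals at this low level.

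Neither RING ligase gene passed in edgeR in either KD, with intervals that do not show equal levels. Rnf2, which encodes the ligase that supplies most H2AK119ub1 in mESCs, was at 165, 161 and 154 CPM in shCon, at 165, 156 and 209.7 CPM with shGas41-1, and at 180.0 and 179 CPM with shGas41-2. Its log2 fold changes of 0.16 (-0.17 to 0.49, FDR = 0.456) and 0.17 (-0.021 to 0.37, FDR = 0.222) did not pass in edgeR, and the highest value of all KD libraries was that of the third shGas41-1 library, without which the former was 0.0068 (FDR = 0.965). Ring1, the less abundant paralogue, was at 18.4, 14.4 and 14.5 CPM in shCon, at 13.5, 9.90 and 14.1 CPM with shGas41-1, and at 14.7 and 13.1 CPM with shGas41-2. All 3 shGas41-1 libraries lay below the lowest shCon library, yet the log2 fold change of -0.32 (-0.74 to 0.10, FDR = 0.251 in edgeR) did not pass, nor did that of -0.18 (-0.52 to 0.17, FDR = 0.476) with shGas41-2.

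Pcgf6, the PCGF protein of the variant complex with L3MBTL2, MGA and E2F6, which represses germline genes in mESCs, was above shCon in every KD library. The levels were 52.1, 47.6 and 48.2 CPM in shCon, 64.5, 59.3 and 59.2 CPM with shGas41-1, and 62.3 and 59.0 CPM with shGas41-2. The log2 fold changes were 0.33 (0.061 to 0.59, FDR = 0.0843) and 0.31 (0.079 to 0.53, FDR = 0.0869) in edgeR, which did not pass with either shRNA. Bmi1, the PCGF subunit of canonical PRC1 known for repressing the Cdkn2a locus, was low throughout, at 5.05, 4.56 and 3.81 CPM in shCon, 4.38, 4.78 and 4.59 CPM with shGas41-1, and 4.13 and 3.97 CPM with shGas41-2, with log2 fold changes of 0.055 (-0.34 to 0.45, FDR = 0.849 in edgeR) and -0.14 (-0.53 to 0.26, FDR = 0.648).

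Rybp, the histone-binding subunit of variant PRC1, ranged more widely between control libraries than Rnf2 or Cbx7, at 144, 162 and 207 CPM in shCon. It was at 151, 153 and 108 CPM with shGas41-1 and at 161 and 175 CPM with shGas41-2. The groups overlapped, and the log2 fold changes were -0.29 (-0.70 to 0.12, FDR = 0.280 in edgeR; -0.16 without the third shGas41-1 library) and -0.019 (-0.37 to 0.33, FDR = 0.949). Of the 50-base stretches of Rybp exons, 7.79% also occur in the pseudogene Gm6910, and counts over them may be shared or lost.

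The shRNAs were also set against each other in 1 fit over 8 libraries, since a call with one and not the other shows no difference. In edgeR, 0 of 9 members and 0% of 19146 genes differed at an FDR of 0.05. Yeats4 did not pass either (log2 difference -0.94, -1.34 to -0.54, FDR = 0.198), although all its shGas41-1 libraries lay below those of shGas41-2. The lack of calls therefore does not show that the shRNAs act alike. At an unadjusted p under 0.05, 0 members and 7.04% of genes differed, and in DESeq2 0 members and 0.893% of genes. Without the third shGas41-1 library 0 members differed in edgeR as well. For Cbx7 the difference of shGas41-1 from shGas41-2 was -0.25 (-0.63 to 0.13) on the log2 scale, and for Cbx6 -0.054 (-0.60 to 0.49). The interval spanned 0 for all 9 members and was widest for Cbx8 (-0.56 to 0.83).

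Markers moved with the KD as well. With shGas41-1, 2 of 7 markers of undifferentiated ESCs, Esrrb and Klf4, fell (log2 fold changes of -1.04 and -1.13) and 0 rose. Pou5f1 (0.053), Nanog (0.094), Sox2 (-0.28), Zfp42 (0.44) and Tdgf1 (-0.020) did not pass. Of 10 differentiation markers, Fgf5, Gata6 and Pax6 rose, Eomes fell and the others did not pass. Mean Fgf5 went from 0.114 to 0.472 CPM and Gata6 from 0.195 to 0.649 CPM, against 207 and 41.7 CPM at EB day 6. Pax6 did not pass at EB day 6 (0.029, FDR = 0.953 in edgeR). All 4 of the 2-cell-like markers tested rose with shGas41-1. Esrrb and Klf4 still passed without the third shGas41-1 library (-0.81 and -1.01), as did Gata6, Pax6 and Eomes, whereas Fgf5 (FDR = 0.0528) and 3 of the 4 2-cell-like markers (FDR between 0.0639 and 0.0690) did not. Thy1, 1 of 2 fibroblast markers tested, fell from a mean of 9.67 to 4.43 CPM. With shGas41-2, 1 of the 7 ESC markers, Klf4, fell by 0.65 on the log2 scale, and none of the differentiation or 2-cell-like markers passed. The part of such cells in the changes of the members was not tested. In bulk RNA, fewer cells that express a gene and less RNA per cell cannot be told apart.

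Differentiation of control cells moved more members than either KD, in both directions. At EB day 6 against EB day 0, 2 members rose (Cbx2 and Bmi1) and 3 fell (Cbx7, Cbx6 and Rybp) at an FDR of 0.05 in edgeR, against 30.5% and 28.4% of 18287 genes. In a comparison where most genes shifted, 7 of 9 members did not overlap between the groups, beside 82.5% of all genes, so the number of members changed was near that of genes at large. The median log2 fold change over the members was -0.038, against -0.0028 over all genes tested.

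Cbx2 was at 48.7 and 44.0 CPM at EB day 0 and at 80.1 and 102 CPM at EB day 6. It rose 1.93-fold (log2 fold change 0.95, 95% interval 0.64 to 1.26, FDR = 0.00105 in edgeR). Bmi1 was at 6.99 and 8.35 CPM and then at 12.6 and 15.7 CPM, and rose 1.82-fold (0.86, 0.46 to 1.27, FDR = 0.00501). For Cbx2 and likewise for Bmi1, each EB day 6 library was above each of the other 10 RNA-seq libraries of the series.

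Cbx7 went from 172 and 162 CPM to 123 and 98.8 CPM and fell by 34.5% (log2 fold change -0.61, -0.90 to -0.32, FDR = 0.00499 in edgeR). Cbx6 went from 84.6 and 76.3 CPM to 62.4 and 49.6 CPM and fell by 31.5% (-0.55, -0.85 to -0.24, FDR = 0.0104). Rybp went from 245 and 227 CPM to 195 and 183 CPM and fell by 21.2% (-0.34, -0.55 to -0.14, FDR = 0.0134). None of these 3 genes overlapped between the days.

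The remaining 4 members did not pass. Pcgf6 was at 52.5 and 46.9 CPM and then at 60.8 and 57.8 CPM (log2 fold change 0.23, 0.013 to 0.45, FDR = 0.0659 in edgeR). Cbx8 was at 1.46 and 1.82 CPM and then at 0.726 and 1.34 CPM (-0.69, -1.54 to 0.17, FDR = 0.140). The ligase genes had the narrowest differences: Rnf2 was at 183 and 194 CPM against 182 and 204 CPM (0.014, -0.20 to 0.22), and Ring1 at 14.9 and 13.3 CPM against 12.2 and 15.6 CPM (-0.038, -0.41 to 0.34). With 2 libraries a day, the calls depend on single libraries: without EB day 0 replicate 3 none of the 5 passed (FDR between 0.0623 and 0.0964, same directions), without EB day 0 replicate 2 only Cbx2 and Cbx7 passed, and without EB day 6 replicate 3 Pcgf6 and Cbx8 passed too.

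**Figure D2:**
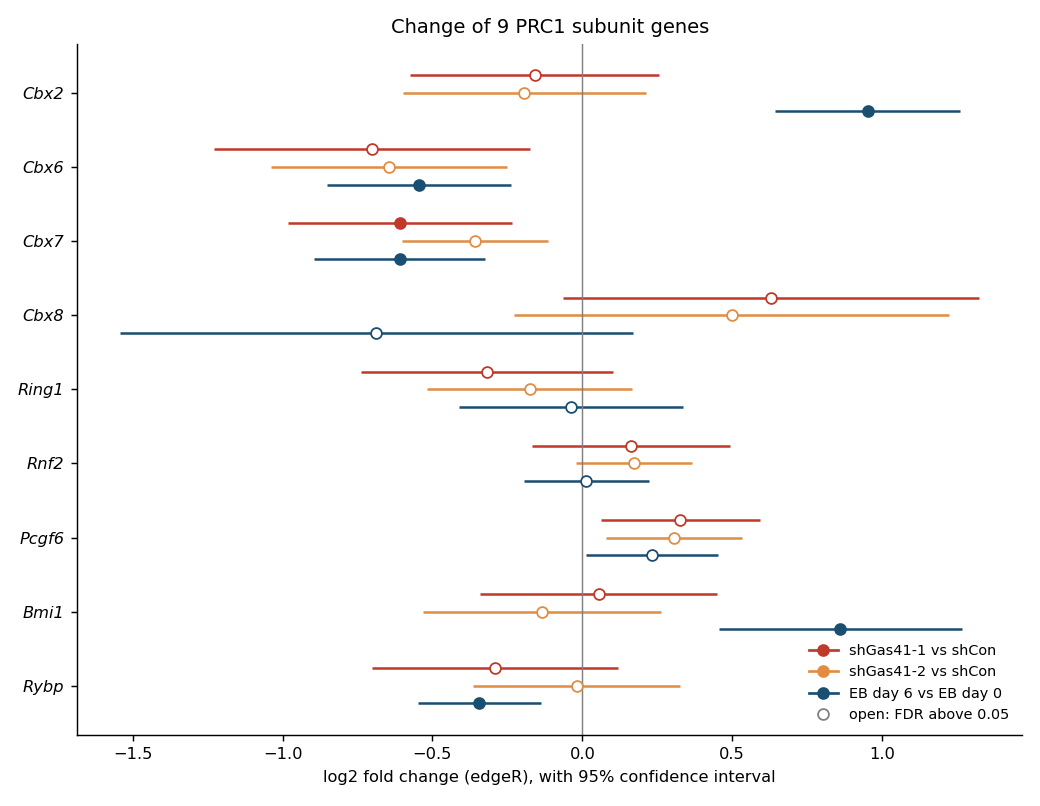
Log2 fold change of each PRC1 member (edgeR) with shGas41-1 and with shGas41-2 against shCon and at EB day 6 against EB day 0, with bars for the 95% confidence interval and filled points where the FDR was 0.05 or less. Cbx7 lies below 0 in all 3 comparisons, from -0.61 to -0.36, and Cbx2 lies at 0.95 at EB day 6 but at -0.16 and -0.19 in the KDs.

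Whether a member responded differently to the KD and to differentiation was tested as an interaction over all 12 libraries, in which the 2 responses share no library. Cbx2 differed with both shRNAs: its KD response was lower than its EB response by a log2 difference of -1.15 (-1.75 to -0.56, FDR = 0.00461 in edgeR) for shGas41-1 and -1.17 (-1.80 to -0.55, FDR = 0.00622) for shGas41-2. Bmi1 likewise differed, by -0.85 (-1.35 to -0.34, FDR = 0.0107) and -1.03 (-1.56 to -0.49, FDR = 0.00539). Cbx8 differed for shGas41-1 (1.28, 0.24 to 2.31, FDR = 0.0444) and did not pass for shGas41-2 (1.16, 0.083 to 2.23, FDR = 0.0798), and the former call held only without shCon 1, shCon 2, shGas41-1 1 or EB day 6 replicate 3, its FDR running from 0.0208 to 0.177 over the libraries left out. The call of Bmi1 for shGas41-1 was lost without EB day 0 replicate 2 (FDR = 0.0626) or EB day 6 replicate 3 (FDR = 0.0586). For shGas41-1 without the third library, the differences were -1.06 (FDR = 0.00648) for Cbx2, -0.85 (FDR = 0.0120) for Bmi1 and 1.21 (FDR = 0.0668) for Cbx8. At this threshold 44.9% of 19684 genes differed for shGas41-1 and 41.4% for shGas41-2, against 3 and 2 of 9 members.

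For the members that fell on differentiation, no difference between the responses was found. The interaction was -0.040 (-0.55 to 0.47) and 0.22 (-0.31 to 0.75) for Cbx7, -0.20 (-0.91 to 0.51) and -0.13 (-0.87 to 0.61) for Cbx6, and 0.0093 (-0.52 to 0.54) and 0.29 (-0.26 to 0.85) for Rybp, for shGas41-1 and shGas41-2 respectively. For shGas41-1 the values without the third library were 0.11 for Cbx7, -0.0045 for Cbx6 and 0.16 for Rybp, and none passed. At this width the intervals do not show that the responses were equal.

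Control cells of the 2 sets were compared before ordering levels across conditions. EB day 0 and shCon, both undifferentiated control cells, differed in 0 of 9 members at an FDR of 0.05 in edgeR (0.386% of 19684 genes did), but 2 members had an unadjusted p under 0.05, Bmi1 with a log2 difference of 0.78 (0.42 to 1.13, FDR = 0.0623) and Rybp with 0.47 (0.095 to 0.84, FDR = 0.193). At that p 17.9% of all genes differed. DESeq2 called 1 member, Bmi1, against 5.65% of all genes, and without the third shGas41-1 library both passed in edgeR. An order of levels over all 5 groups therefore includes the difference between the control sets.

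Ordered by group mean, Cbx7 ran from 167 CPM at EB day 0 through 143 CPM in shCon, 111 CPM at EB day 6 and 110.7 CPM with shGas41-2 to 92.2 CPM with shGas41-1. EB day 6 overlapped shGas41-2, which overlapped shGas41-1, and the higher steps did not overlap. The highest group mean of Cbx2 was 2.51 times the lowest (EB day 6 over shGas41-2), and that of Cbx6 2.17 times (EB day 0 over shGas41-1). For Bmi1 the span was 3.49 times (14.1 CPM at EB day 6 over 4.05 CPM with shGas41-2), which includes the difference between the control sets, against the 1.82-fold rise within the EB set. Rnf2, Pcgf6 and Ring1 spanned the least, at 1.20, 1.24 and 1.26 times between the highest and lowest group.

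Paralogues of a family were compared as shares of their summed CPM per kb. Among the members Cbx2, Cbx6, Cbx7 and Cbx8, Cbx7 made up 65.5% ± 2.48 (SD, n = 3) in shCon, 61.7% ± 1.63 with shGas41-1, 65.7% ± 1.02 (n = 2) with shGas41-2, 64.6% ± 0.661 (n = 2) at EB day 0 and 48.8% ± 5.80 (n = 2) at EB day 6. Cbx2 made up 15.4%, 18.2% and 17.3% in the shCon libraries, 20.6%, 21.8% and 23.8% with shGas41-1, 18.2% and 20.1% with shGas41-2, 16.2% and 15.7% at EB day 0, and 30.6% and 41.1% at EB day 6. At EB day 6 the Cbx2 share was higher and the Cbx7 share lower in both libraries than in either EB day 0 library. The sum over these members was 57.6 ± 6.67 CPM per kb in shCon, 39.5 ± 8.33 with shGas41-1, 44.5 ± 4.00 with shGas41-2, 68.2 ± 3.37 at EB day 0 and 59.9 ± 2.21 at EB day 6. Without the third shGas41-1 library the shGas41-1 values were 62.1% ± 2.02 (n = 2) for Cbx7, 21.2% ± 0.879 for Cbx2 and 43.5 ± 6.31 CPM per kb for the sum. Cbx8 never made up more than 2.03% in any library.

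Among the PCGF genes, Pcgf6 made up 31.5% ± 1.98 (SD, n = 3) in shCon, 38.7% ± 1.81 (n = 3) with shGas41-1 (38.3% ± 2.34 without the third library) and 36.8% ± 2.24 (n = 2) with shGas41-2, with every KD library above every shCon library, and 31.0% and 30.2% at EB day 0 and day 6. Bmi1 made up 2.95% in shCon, 4.92% at EB day 0 and 7.40% at EB day 6. Rnf2 held between 91.6% and 93.8% of the RING pair in every group mean. Rybp held 94.3% ± 0.326 of the Rybp and Yaf2 sum in shCon and 95.3% ± 0.668 at EB day 0, but 68.8% ± 3.24 at EB day 6, where Yaf2 reached 31.2%. Exact permutation tests (two-sided) of these shares cannot go below p = 0.1 for the KDs or 0.333 for EB day 6, and over the 66 comparisons of shares and sums the lowest adjusted value was 0.412. The shares are therefore given as values.

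**Figure D3:**
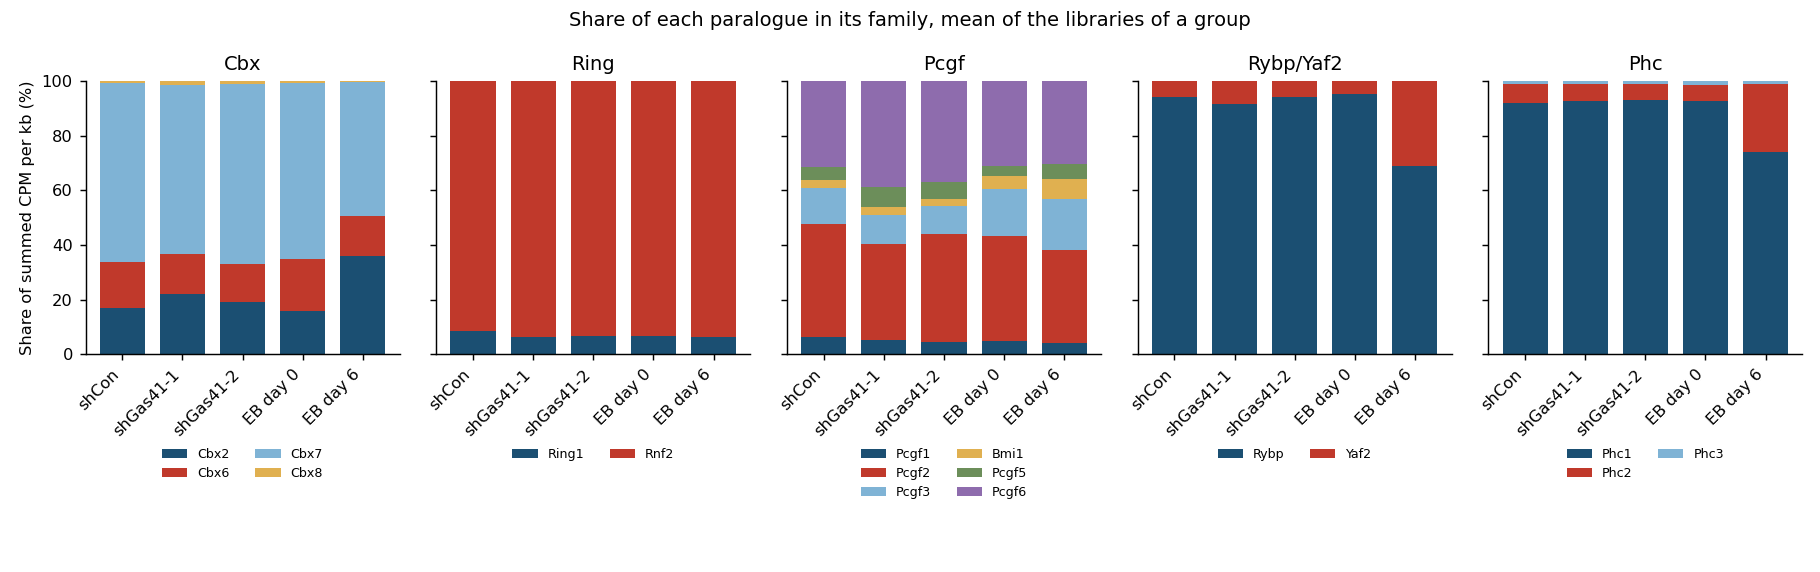
Mean share of each paralogue in the summed CPM per kb of exon of 5 sets of PRC1 paralogues, as stacked bars for the 5 groups. Cbx7 makes up 48.8% of the summed Cbx members at EB day 6 and 61.7% to 65.7% in the other groups, and Yaf2 makes up 31.2% of the Rybp and Yaf2 sum at EB day 6.

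The other PRC1 genes, a list of 36, were all tested. It covers further canonical and variant subunits, the deubiquitinases that remove H2AK119ub1, and the Asxl genes listed with them. With shGas41-1, 0 rose and 1 fell (median log2 fold change -0.076), with shGas41-2, 2 rose and 0 fell (median -0.038), and at EB day 6, 17 rose and 6 fell (median 0.14). Over all genes tested, 10.8% rose and 7.73% fell with shGas41-1, 5.94% and 3.97% with shGas41-2, and 30.5% and 28.4% at EB day 6. At an unadjusted p under 0.05 8 and 11 of them differed in the KDs, against 35% and 28.3% of all genes, and DESeq2 called 3 and 4, against 25.3% and 15.9%. Without the third shGas41-1 library 4 passed with shGas41-1, Kdm2b and Asxl1 higher and Cbx3 and Tfdp1 lower. The gene that fell with shGas41-1 was Tfdp1, the DP1 partner of E2F factors, at 259.6, 271 and 289.8 CPM in shCon and 176, 167 and 158 CPM in the KD (log2 fold change -0.69, -0.95 to -0.43, FDR = 0.00547 in edgeR, and -0.67 without the third library). With shGas41-2 Kdm2b, the subunit that brings PCGF1 complexes to CpG islands, was at 143 and 166 CPM against 82.7, 102 and 99.8 CPM in shCon (0.71, 0.44 to 0.99, FDR = 0.0129). Hdac1, a histone deacetylase, was at 275 and 288 CPM against 229, 214 and 186 CPM (0.43, 0.19 to 0.68, FDR = 0.0436). The Kdm2b call was lost without shGas41-2 replicate 2 (FDR = 0.129), and that of Hdac1 with library size alone as the scaling, with all 12 libraries in 1 fit, and without shCon 2, shGas41-2 1 or shGas41-2 2.

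At EB day 6 the largest changes among them were those of Yaf2, Auts2 and Phc2. Yaf2, the paralogue of Rybp, was at 4.59 and 5.24 CPM at EB day 0 and at 33.4 and 38.7 CPM at EB day 6, a rise of 7.22-fold (log2 fold change 2.85, FDR = 1.77e-05 in edgeR). Auts2, which joins PRC1 with PCGF3 or PCGF5 and is known from neural development, rose 5.20-fold from 7.97 and 7.40 CPM to 39.6 and 41.6 CPM. Phc2, a polyhomeotic subunit that can polymerise, rose 4.42-fold from 26.3 and 27.9 CPM to 103 and 140.2 CPM. Yaf2 and its paralogue Rybp thus moved in opposite directions.

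Further rises were seen for Scml2 (log2 fold change 1.93), Asxl3 (1.72), Bcor (1.45), Kdm2b (1.33), E2f6 (1.23) and Pcgf5 (0.92), and Wdr5, a WD-repeat scaffold of several chromatin complexes, fell by 53.2% (each FDR 0.05 or less in edgeR). Without EB day 0 replicate 3, 10 of the 36 genes passed in place of 23, and Asxl3 (FDR = 0.0873) and Pcgf5 (FDR = 0.0667) were among those lost. By assembly, 3 of 6 canonical genes rose and none fell, 3 of 4 variant cores rose, 4 of 5 genes of the KDM2B and BCOR complex rose and 1 fell, and 3 of 6 genes of the AUTS2 complexes rose and 1 fell. Of 9 genes of the PCGF6 complex, 2 rose and 3 fell. Of 6 genes in the deubiquitinase set, which includes Asxl1, Asxl2 and Asxl3, 2 rose and 1 fell. These sets hold between 4 and 9 genes each, and 30.5% of all genes rose and 28.4% fell in the same comparison.

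**Figure D4:**
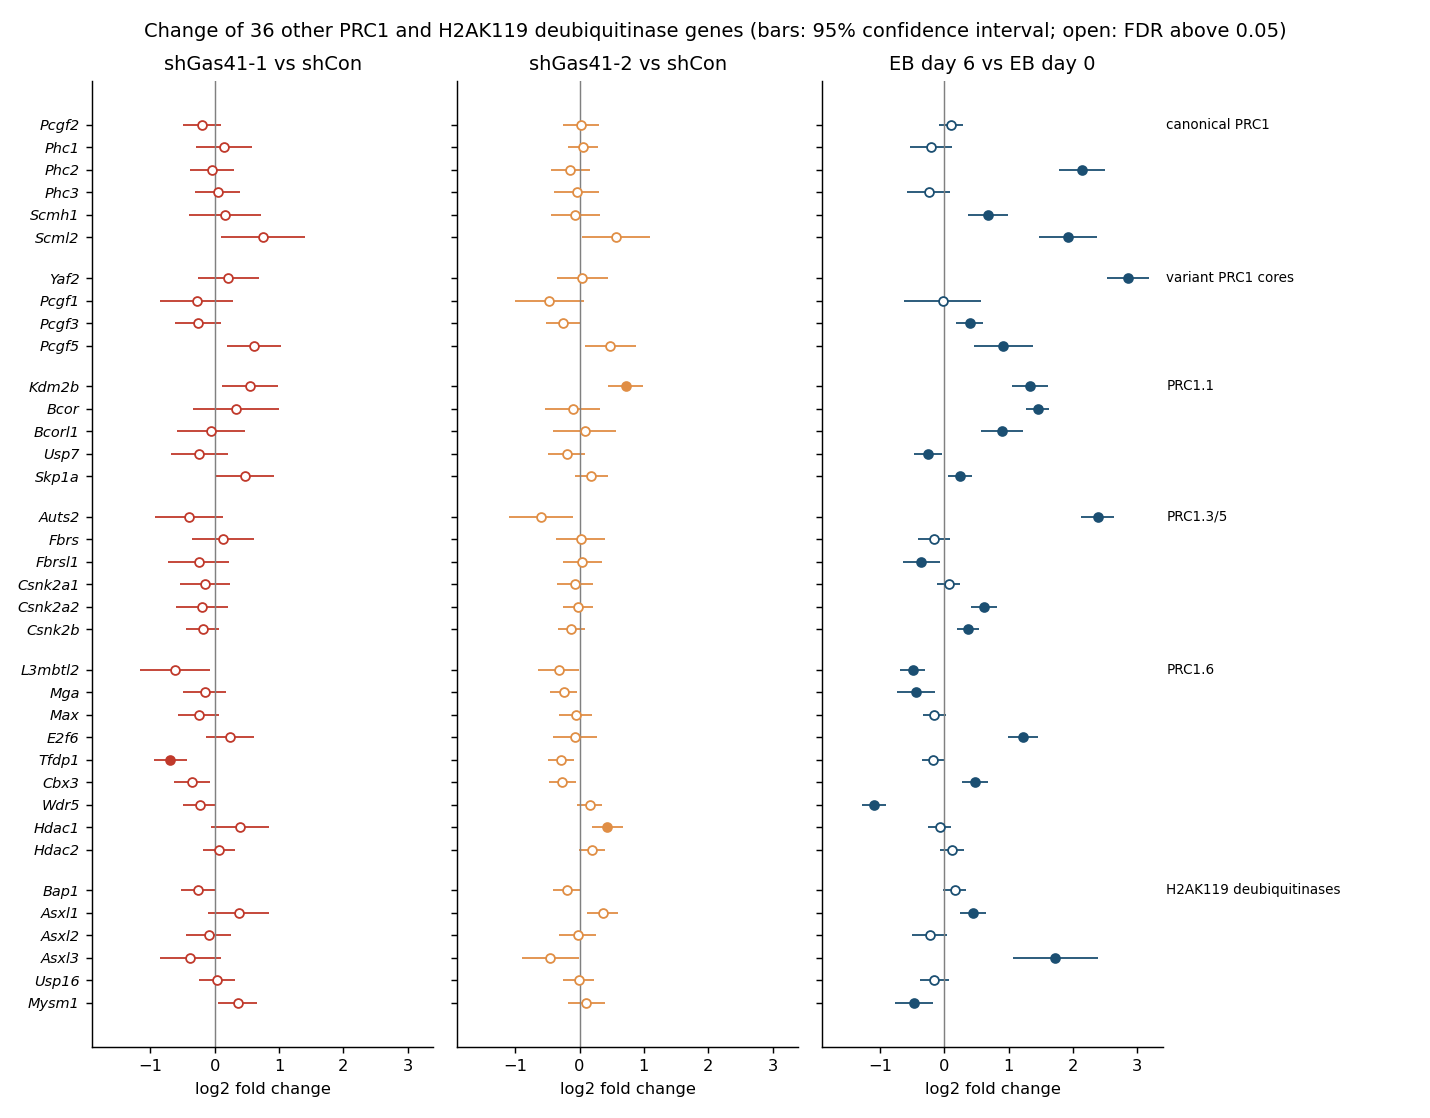
Log2 fold change (edgeR) of the other 36 genes, of PRC1 and of the H2AK119 deubiquitinase set with its Asxl genes, in the 3 comparisons. Each gene has 1 row, grouped by assembly, with bars for the 95% confidence interval, filled where the FDR was 0.05 or less. The KDs have 1 and 2 filled points, and EB day 6 has 23, with Yaf2 highest at 2.85 and Wdr5 lowest.

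Across the 12 libraries, Cbx6 and Cbx7 had the most alike levels of any pair of members (Pearson r = 0.935 of log2(CPM + 1)), ahead of Cbx6 and Rybp (0.884), Cbx2 and Bmi1 (0.867) and Cbx7 and Rybp (0.823). Cbx7 and Pcgf6 were the most opposed (-0.763). Cbx6 and Cbx7 were again the most alike pair without the third shGas41-1 library (r = 0.899 over 11 libraries), ahead of Cbx2 and Bmi1 (0.871) and Cbx6 and Rybp (0.815). These are descriptions over libraries that share conditions, depth and GC trends. Exon GC contents were 57.1% for Cbx6 and 57.4% for Cbx7, and between 39.1% and 43.3% for Rnf2, Pcgf6, Bmi1 and Rybp. Cbx2 (58.1%) and Ring1 (57.8%) had GC contents like those of Cbx6 and Cbx7. They correlated with Cbx7 at 0.152 and 0.114 and with Cbx6 at 0.438 and 0.0096, whereas Rybp (43.3%) was among the most alike pairs above. The part of GC in these correlations was not tested. The gene most like each member among 13641 compared was Nfkb2 for Cbx2 (r = 0.988), Baz2a for Cbx6 (0.987), Tbc1d2 for Cbx7 (0.972), Etohd2 for Cbx8 (0.882), Crcp for Ring1 (0.898), Dr1 for Rnf2 (0.931), Neto2 for Pcgf6 (0.951), Casd1 for Bmi1 (0.982) and Pkp4 for Rybp (0.984). When the third shGas41-1 library was left out, Baz2a, Dr1 and Pkp4 were again the closest to their members, and the closest to the other 6 were other genes.

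**Figure D5:**
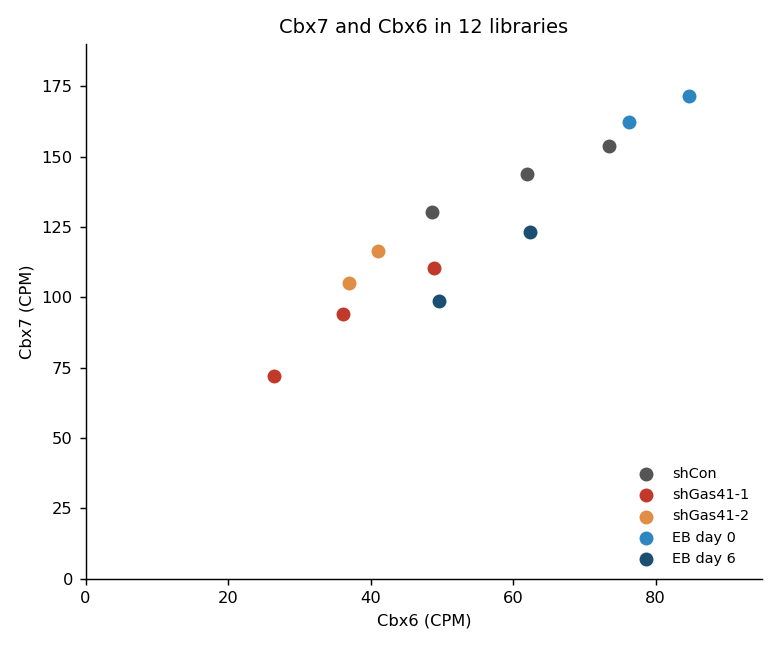
Levels of Cbx7 against Cbx6 (CPM, 1 point per library, colours for the 5 groups) over the 12 libraries. The KD libraries lie at the lower left (Cbx6 26.4 to 48.9 CPM, Cbx7 72.2 to 117 CPM) and EB day 0 at the upper right (Cbx6 76.3 and 84.6 CPM, Cbx7 162 and 172 CPM).

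The nearest tested neighbours of the members were compared with them in the same 3 comparisons. Apobec3, a cytidine deaminase gene that lies between Cbx6 and Cbx7 and 4684 bases from the latter, fell with shGas41-1 (log2 fold change -0.69, FDR = 0.0105 in edgeR; -0.61 without the third library) and at EB day 6 (-1.36, FDR = 0.000214) and was at -0.31 (FDR = 0.0934) with shGas41-2. Pdgfb, on the far side of Cbx7, was at 0.32, 0.095 and 0.22 and passed in none of the 3. Commd3, 786 bases from Bmi1, rose at EB day 6 (0.82, FDR = 0.0152), as did Bmi1 itself. Pip4k2a, 155625 bases away on the other side, rose too (0.56, FDR = 0.0115). Rybp, which fell at EB day 6, has no close tested neighbour. Shq1, 285639 bases away, fell (-0.61, FDR = 0.00243), and Tpt1-ps3, 350132 bases away, rose (0.62, FDR = 0.00176). Tpt1-ps3 also rose with shGas41-1 (0.67, FDR = 0.0293 in edgeR). Ina, a neuronal filament gene 8291 bases from Pcgf6, rose in all 3 comparisons (1.35, 0.78 and 1.37, the first passing without the third shGas41-1 library too), while Taf5 on the other side passed in none (-0.27, -0.12 and 0.052). Beside Cbx2, whose level rose at EB day 6, Cbx8 was at -0.69 (FDR = 0.140) and Rbfox3, 111364 bases away on the other side, fell (-1.77, FDR = 0.00332). Ring1 and Rnf2 did not pass at EB day 6, but H2-K1, 20458 bases from Ring1, rose (2.58, FDR = 1.21e-05). On either side of Rnf2, 1190005F20Rik (-0.79, FDR = 0.000301) and Fam129a (-1.06, FDR = 0.00108) fell. H2-Ke6 beside Ring1 (-0.40) and Dnalc4 beside Cbx6 (-0.066) did not pass. Of all genes tested, 30.5% rose and 28.4% fell at EB day 6, 10.8% and 7.73% with shGas41-1, and 5.94% and 3.97% with shGas41-2.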

How the data were processed

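RNA-seq libraries of J1 mESCs were grouped by their labels. The 2 EB day 0 columns are called ESC in their table and were matched by sample title and growth protocol. Per the labels and methods, the authors made TruSeq libraries, which do not mark strand, mapped reads to mm9 with TopHat2 2.0.10 and counted them per gene with HTSeq 0.6.0, and they deposited raw counts that were not normalized. The deposited tables also hold log2 fold changes and p-values (with FDR) from the authors' own edgeR comparisons, which were not used here. ChIP-seq samples were not analysed here. One further gene is not reported here and was left out of the lists and sums.

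Genes were joined by Ensembl identifier, and identifiers not listed in a table were set to 0 (the shCon counts were identical in both KD tables, and genes listed in only 1 of these had no shCon count). Counts were tested in R 4.3.3 with edgeR 4.0.16 (filterByExpr with a minimum count of 10 and total of 15, TMM, glmQLFit and glmQLFTest, Benjamini-Hochberg over all genes tested), after a test on simulated data. Genes passed at an FDR of 0.05 or less. CPM were scaled by TMM over the 12 libraries. Exon lengths, GC and positions came from GENCODE on mm9, and 26910 of 27080 genes had a model there. The floor of 3 counts covers counting error only, since reads are not independent molecules, and counts were tested as deposited although low counts were more often even than odd. Correlations used log2(CPM + 1).

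Genes named are the 9 members, Yeats4, up to 10 other PRC1 genes with the largest passing changes per comparison, the gene most like each member (no Gm or Rik names), the nearest tested neighbours and the markers. The members and lists were chosen with earlier results of these data known. Alternatives were RLE and library-size scaling, no filter, DESeq2 1.42.0, all 12 libraries in 1 fit, a replicate block, other thresholds, and each library left out. GC-trend offsets were added after the data were seen.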

Additional observations from a re-analysis of the deposited data

How the results depend on the processing

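With 2 or 3 libraries a group, counts of members that passed depend on the fit. For shGas41-1 the 1 member became 2 without the count filter or in DESeq2, 3 with all 12 libraries in 1 fit, 0 with a replicate block, 0 at an FDR of 0.01, 0 with the 2-fold rule of the study's methods, and 0 to 2 with a library left out. For shGas41-2 the 0 members became 2 with library size alone or GC-trend offsets, 1 without the filter, 3 in DESeq2, 6 with a replicate block, and 0 to 3 with a library left out (3 without shCon 1). At EB day 6 the 5 members became 3 with all 12 libraries (Cbx6 and Rybp lost) or at an FDR of 0.01, 0 with the 2-fold rule, and 0 to 7 with a library left out. EB day 0 against shCon gave 1 in DESeq2 and 0 to 2 with a library left out, and the interactions 1 to 3 and 2 to 3. For the other PRC1 genes, the 1 with shGas41-1 became 2 (library size), 3 (DESeq2 and GC-trend offsets), 8 (all 12 libraries), 0 (2-fold) and 1 to 4 (library left out). The 2 with shGas41-2 became 4 (DESeq2), 1 (all 12 libraries), 16 (replicate block), 0 (2-fold and FDR 0.01) and 0 to 5, the 5 without shCon 1 and the 0 without shGas41-2 replicate 2. The 23 at EB day 6 became 9 (2-fold) and 10 to 23. Log2 fold changes near 0 changed sign: with shGas41-1, Cbx2 was 0.054 with GC-trend offsets and Bmi1 -0.023 with library size alone and -0.064 to 0.15 with a library left out. With shGas41-2, Rybp was 0.029 with GC-trend offsets, 0.14 with the replicate block and -0.12 to 0.14 with a library left out. At EB day 6, Rnf2 was -0.072 with library size alone and -0.057 to 0.092 with a library left out, and Ring1 -0.21 to 0.13. Without exon length the Cbx7 share in shCon was 57.9%, and 64.1% to 66.4% with a library left out. The stricter thresholds leave fewer calls by construction, and the cause of the other differences was not tested. With library size alone, 1734 of 18274 genes rose and 1752 fell with shGas41-1, and 961 of 18405 rose and 1289 fell with shGas41-2. With GC-trend offsets these were 2482 and 1219, and 1384 and 648. No share of all genes is given for the replicate block, all 12 libraries in 1 fit, no filter, other thresholds or libraries left out. Counts under those settings therefore cannot be set beside genes at large. Where a group kept 1 library, that library is assumed to vary like the other groups. Shared replicate numbers were not taken to pair the libraries, since deviations of same-numbered libraries correlated at -0.29, 0.17 and -0.74 for shCon and shGas41-1. Such deviations correlated at 0.58 and 0.57 for shCon and shGas41-2 and at 0.18 for the EB days, where only 2 numbers are shared and no such check can be decided.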
